A study of Mus musculus with 6 samples.

Results

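The hormone genes *Ins1*, *Ins2* and *Iapp* were examined in RNA-Seq libraries of isolated mouse islets. They were taken by their names alone, as 3 of the 41710 genes counted in each library. Trpm7R/R mice, homozygous for a point mutation that leaves the TRPM7 kinase inactive, were compared with their WT control littermates. All 6 mice, 3 per genotype, had been fed an HFD with 45% of its calories from fat for 16 weeks, beginning when they were 8 weeks old. The replicates are separate mice with 1 library from each, so p-values set the difference between genotypes against the spread between mice. The mutation is present in every cell of the animal and not only in β cells, and the series holds no group on another diet. The paper's islet isolation included a recovery in culture medium, which its RNA-Seq methods do not mention separately. The point mutation cannot be seen in gene counts, and *Trpm7* itself had 35, 76 and 85 exon reads in Trpm7R/R replicates 1, 2 and 3, against 97, 65 and 53 in WT replicates 1, 2 and 3.

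Insulin is made by the β cells of the islet as a preprohormone, which enters the endoplasmic reticulum (ER), folds around its disulfide bonds and is cut in secretory granules into insulin and C-peptide. Mice carry a pair of insulin genes. *Ins2* has the ancestral structure with an intron in the coding sequence, and *Ins1* arose from it by retroposition and lacks that intron. *Iapp* encodes islet amyloid polypeptide, or amylin, which β cells store and release together with insulin. The islet transcription factors PDX1, NEUROD1 and MAFA bind insulin gene promoters, PDX1 at sites with a TAAT core and NEUROD1 at E-boxes.

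In GENCODE M21 on GRCm38, *Ins1* (ENSMUSG00000035804) lies on the plus strand of chr19:52264297-52265476 and has 2 exons of 195 and 867 bases. All 324 coding bases of *Ins1* are in its second exon, and its only intron, of 118 bases, lies in the 5′ UTR. *Ins2* (ENSMUSG00000000215) lies on the minus strand of chr7:142678656-142743381, and its main transcript has 3 exons of 65, 213 and 200 bases. The other *Ins2* transcripts start far upstream, so that the *Ins2* gene of the deposited files spans 64726 bases with 1312 exon bases and 63414 intron bases. *Iapp* (ENSMUSG00000041681) lies on the plus strand of chr6:142298423-142303961, and its main transcript has 3 exons of 88, 95 and 656 bases.

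The 250 bases upstream of the annotated start are shown for *Ins1* (chr19:52264047-52264296, plus strand) and *Iapp* (chr6:142298175-142298424, plus strand), because both genes had lower levels in every Trpm7R/R library. The sequences are from RefSeq on GRCm38.p6, which matched 2 of the 3 members. Capitals mark CATCTG, a form of the E-box, TAAT and TATAA on either strand. TAAT and TATAA overlap at 1 place in *Ins1*, and TAAT on the 2 strands overlaps at 1 place in *Iapp*.
Ins1: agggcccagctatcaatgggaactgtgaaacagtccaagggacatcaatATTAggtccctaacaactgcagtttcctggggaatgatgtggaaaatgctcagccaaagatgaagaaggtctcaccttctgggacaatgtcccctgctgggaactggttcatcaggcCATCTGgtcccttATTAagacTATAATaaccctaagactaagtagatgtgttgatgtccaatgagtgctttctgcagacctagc
Iapp: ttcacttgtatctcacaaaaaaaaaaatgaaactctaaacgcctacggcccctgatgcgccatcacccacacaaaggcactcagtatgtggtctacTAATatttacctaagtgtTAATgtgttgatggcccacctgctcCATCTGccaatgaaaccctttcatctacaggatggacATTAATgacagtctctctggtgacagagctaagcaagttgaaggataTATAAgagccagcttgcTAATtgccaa
The *Ins1* window holds a second CATCTG after the annotated start, in the stretch chr19:52264317-52264346 on the plus strand.
Ins1 after the start: ctgcagcttcagcccctctggcCATCTGcc
CATCTG was present on either strand in 17.2% of the 32851 RefSeq windows of 300 bases, TAAT in 58.0% and TATAA in 24.9%. The matches are a description of the letters and not of binding.

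Sequencing depth was similar in all 6 libraries, with 17213285 to 20307909 mapped reads in Trpm7R/R and 18226053 to 18825699 in WT. Introns held 78.4% to 83.5% of gene reads in Trpm7R/R and 75.7% to 84.2% in WT, and 11 predicted genes with very dense reads held 58.2% to 67.0% of exon reads in Trpm7R/R and 50.6% to 69.3% in WT. Exon-exon reads, which span a splice junction, made up 0.0348% to 0.0514% of mapped reads in Trpm7R/R and 0.0917% to 0.194% in WT. This count left out those 11 genes and the mitochondrial chromosome and kept the members. The level called the background here is the median read density in introns of 5181 autosomal genes with at least 50000 intron bases. Relative to autosomal introns, the density of Y-linked introns was 0.0455 and 0.0413 in Trpm7R/R replicates 2 and 3 and 0.686 in Trpm7R/R replicate 1, against 0.834 to 0.973 in WT. The density of X-linked introns was 1.51 and 1.48 in Trpm7R/R replicates 2 and 3 and 0.593 in Trpm7R/R replicate 1, against 0.740 to 0.809 in WT. The labels give no sex for the mice, and the paper used both sexes. Low Y-linked with high X-linked density, the pattern of females, was seen in Trpm7R/R replicates 2 and 3 and in no WT library. Genotype and sex therefore cannot be fully told apart in the comparisons of all 6 libraries. Values with Trpm7R/R replicate 1 alone, an alternative chosen after seeing the data, are therefore given beside the results on levels.

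*Ins2*, *Ins1* and *Iapp* had fewer exon reads in every Trpm7R/R library than in any WT library, by 4.36-fold, 3.71-fold and 3.26-fold on average after scaling. None of the 3 passed the threshold over all genes in edgeR's quasi-likelihood test, and all 3 passed it in the Wald test of DESeq2. The fold depended on what the reads were scaled to, and it was smaller when ribosomal protein genes, housekeeping transcripts or spliced reads of other genes set the scale. The ratios of the members to each other did not separate the genotypes. In bulk islets, fewer β cells and less RNA of a gene per β cell cannot be told apart. Exon-exon reads of nuclear genes, counted as above with the members included, were a lower share of mapped reads in Trpm7R/R (0.0348% to 0.0514%) than in WT (0.0917% to 0.194%). *Ins2* alone held 12.2%, 13.2% and 25.4% of these reads in Trpm7R/R, against 42.3%, 26.3% and 21.6% in WT. The lower share of exon-exon reads is thus in part the members' own difference. How far the rest of it enters the members' difference was not tested.

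*Ins2*, which accounts for most insulin mRNA counted here, had 3774, 3648 and 9630 exon reads in Trpm7R/R replicates 1, 2 and 3, against 35327, 28306 and 11717 in WT replicates 1, 2 and 3. Scaled to 1000000 mapped reads (RPM), the levels were 219, 207 and 474 in Trpm7R/R, against 1877, 1553 and 635 in WT. The highest Trpm7R/R library and the lowest WT library were thus the closest neighbours, and the other 2 WT libraries were far above all Trpm7R/R libraries. The normalized count of *Ins2* averaged 5640 ± 2986 in Trpm7R/R and 24610 ± 11782 in WT (SD, n = 3 each). The log2 fold change of *Ins2* was -2.13 with a standard error of 0.47 (adjusted p = 0.0985 from edgeR's quasi-likelihood test with Benjamini-Hochberg adjustment). With Trpm7R/R replicate 1 as the only mutant library the log2 fold change was -2.77 (adjusted p = 0.134 from edgeR), with the spread taken from the WT libraries.

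*Ins1* had 1670, 1019 and 2367 exon reads in Trpm7R/R replicates 1, 2 and 3, against 5320, 10513 and 3335 in WT replicates 1, 2 and 3. In RPM the levels were 97.0, 57.8 and 117 in Trpm7R/R, against 283, 577 and 181 in WT. The order of the WT libraries differed from that of *Ins2*, since WT replicate 2 and not replicate 1 was highest. The normalized count of *Ins1* averaged 1676 ± 539 in Trpm7R/R and 6224 ± 3446 in WT (SD, n = 3 each). The log2 fold change of *Ins1* was -1.89 with a standard error of 0.41 (adjusted p = 0.0978 from edgeR). With Trpm7R/R replicate 1 alone it was -1.97 (adjusted p = 0.186 from edgeR), and without WT replicate 2 it was -1.31 (adjusted p = 0.864 from edgeR).

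*Iapp* had 446, 294 and 1177 exon reads in Trpm7R/R replicates 1, 2 and 3, against 2616, 2038 and 1584 in WT replicates 1, 2 and 3. In RPM the levels were 25.9, 16.7 and 58.0 in Trpm7R/R, against 139, 112 and 85.8 in WT. As for both insulin genes, replicate 3 was the highest Trpm7R/R library and also the lowest WT library carried that number, although the numbers do not pair mice. The normalized count of *Iapp* averaged 627 ± 421 in Trpm7R/R and 2044 ± 505 in WT (SD, n = 3 each). The log2 fold change of *Iapp* was -1.70 with a standard error of 0.41 (adjusted p = 0.135 from edgeR). With Trpm7R/R replicate 1 alone it was -2.26 (adjusted p = 0.0588 from edgeR), and without Trpm7R/R replicate 3 it was -2.35 (adjusted p = 0.269 from edgeR).

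**Figure D1:**
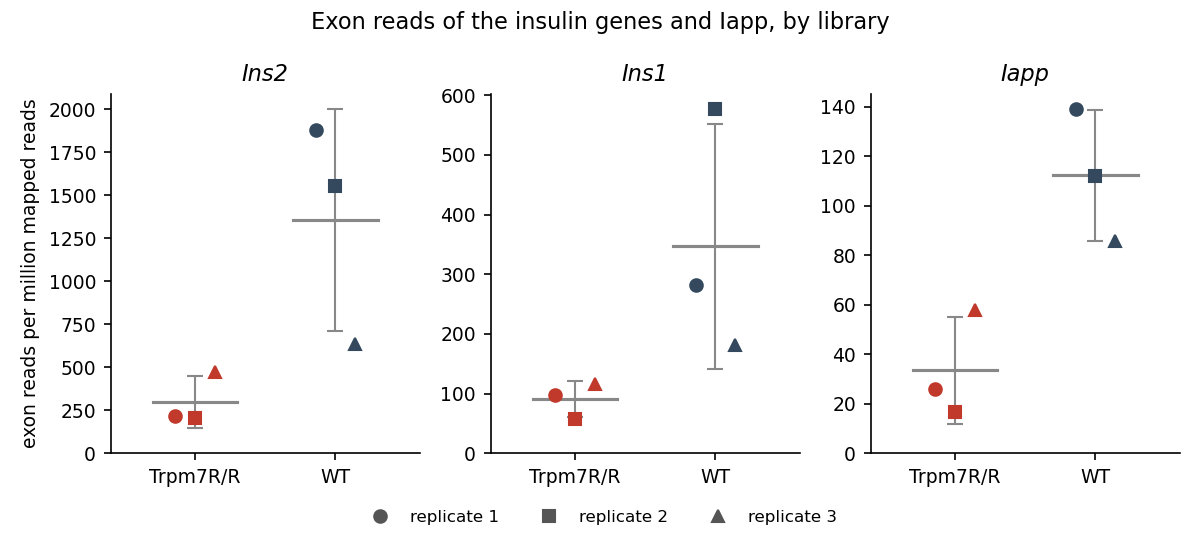
Exon reads in RPM of *Ins2*, *Ins1* and *Iapp* (y axes, linear, from 0) in 3 Trpm7R/R libraries (red, left) and 3 WT libraries (dark, right). Symbols are single mice, horizontal lines are means and bars are SD; all Trpm7R/R libraries lie below all WT libraries, with *Ins2* closest at 474 in Trpm7R/R replicate 3 and 635 in WT replicate 3.

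With calls made at 2-fold and an adjusted p no larger than 0.05, edgeR's quasi-likelihood test called 0 of the 3 members, and it called 0.0257% of all 11674 genes tested as lower. All 3 members had an unadjusted p under 0.05 and a lower level, as had 4.57% of the genes tested. All 3 had every Trpm7R/R library below every WT library, as had 6.84% of the genes tested. *Ins1* ranked at position 54, *Ins2* at 60 and *Iapp* at 99 by p among all genes tested. The Wald test of DESeq2 on the same counts called all 3 members lower, with adjusted p of 0.00088 for *Ins1*, 0.000402 for *Ins2* and 0.00843 for *Iapp*, and it called 1.08% of its 9637 genes lower. Under TMM scaling, a method that trims extreme genes before it sets the scale, the median over all genes tested was 0.01 on the log2 scale.

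Levels of different genes were compared per kilobase of exon, in RPKM of the authors. *Ins2* had 167, 158 and 361 RPKM in Trpm7R/R, against 1430, 1184 and 484 in WT. It ranked 1 by TPM in all 6 libraries once the mitochondrial chromosome and the 11 dense predicted genes were left out, so the gene that defines islet tissue led the nuclear genes of every library. *Ins1* had 91.4, 54.4 and 110 RPKM in Trpm7R/R, against 266, 543 and 170 in WT, and ranked 2 or 3 in all libraries by the same measure. *Iapp* had 26.6, 17.1 and 59.5 RPKM in Trpm7R/R, against 143, 115 and 88.1 in WT, and ranked between 4 and 7 in Trpm7R/R and at 4 or 5 in WT. The order *Ins2*, *Ins1*, *Iapp* was the same in every library.

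TPM values gave a less clear separation than reads per mapped read. The TPM of *Ins2* averaged 2738 ± 2001 in Trpm7R/R and 13837 ± 9442 in WT (SD, n = 3 each), and Trpm7R/R replicate 3 with 5048 TPM was above WT replicate 3 with 3801 TPM. For *Ins1* Trpm7R/R replicate 3 had 1533 TPM, against 1337 TPM in WT replicate 3. For *Iapp* the same libraries had 831 TPM and 692 TPM. TPM divides by a sum over all genes, and in WT replicate 3 the 11 dense predicted genes held 69.3% of exon reads, the highest share of the 6 libraries.

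The question whether the insulin genes changed in step was addressed by ratios within each library, which do not depend on scaling. *Ins1* had 0.443, 0.279 and 0.246 exon reads per *Ins2* exon read in Trpm7R/R, against 0.151, 0.371 and 0.285 in WT. The groups overlapped, and the highest ratio was in Trpm7R/R replicate 1 and the lowest in WT replicate 1. The ratio averaged 0.323 ± 0.105 in Trpm7R/R and 0.269 ± 0.111 in WT (SD, n = 3 each), a difference of 0.31 in mean log2 ratio (2-sided exact permutation test, p = 0.6). Divided by the exon lengths of the files the *Ins1* to *Ins2* ratio was 0.304 to 0.547 in Trpm7R/R and 0.186 to 0.459 in WT. Divided by the lengths of the main transcripts, 1062 bases for *Ins1* and 478 for *Ins2*, it was 0.111 to 0.199 in Trpm7R/R and 0.0678 to 0.167 in WT.

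*Iapp* had 0.0819, 0.0630 and 0.0981 exon reads per exon read of *Ins1* plus *Ins2* in Trpm7R/R, against 0.0644, 0.0525 and 0.105 in WT. Both the lowest and the highest value were in WT libraries, so the WT range enclosed the Trpm7R/R range. The *Iapp* ratio averaged 0.0810 ± 0.0176 in Trpm7R/R and 0.0740 ± 0.0277 in WT (SD, n = 3 each), a difference of 0.17 in mean log2 ratio (2-sided exact permutation test, p = 0.8). With 3 mice against 3 the smallest p that this test can give is 0.1, and neither difference was larger than the spread between mice. The sign of the *Ins1* to *Ins2* difference changed without WT replicate 1 (-0.059), and that of the *Iapp* difference without WT replicate 2 (-0.046). Counted in exon-exon reads, the *Ins1* to *Ins2* difference was -1.08 (2-sided exact permutation test, p = 0.2).

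**Figure D2:**
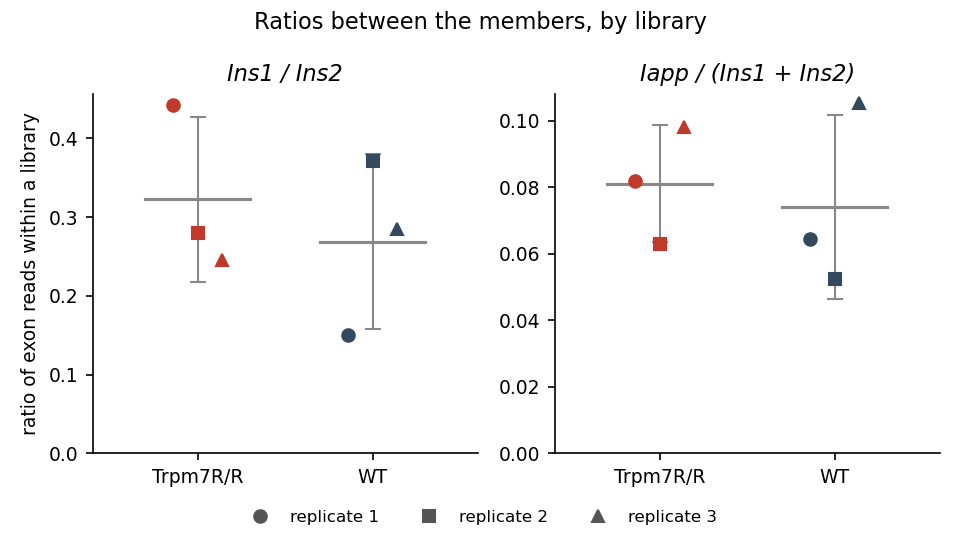
Ratio of exon reads of *Ins1* to *Ins2* (left) and of *Iapp* to *Ins1* plus *Ins2* (right) within each library, for 3 Trpm7R/R mice (red) and 3 WT mice (dark), on linear axes from 0. Lines are means and bars SD; the groups overlap, at 0.246 to 0.443 in Trpm7R/R and 0.151 to 0.371 in WT for *Ins1* to *Ins2*.

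*Ins1* and *Ins2* are similar in sequence, and their main transcripts share an identical run of 56 bases. Of the 1013 windows of 50 bases in the *Ins1* transcript, 7 occur in the *Ins2* transcript and 0 in the *Iapp* transcript. Uniquely mapped reads made up 99.9% to 100% of *Ins1* exon reads in Trpm7R/R and 99.96% to 100% in WT, and 99.8% or more of *Ins2* exon reads in each library. With uniquely mapped reads the log2 fold changes were -2.13 for *Ins2*, -1.89 for *Ins1* and -1.71 for *Iapp*.

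Exon reads were set against introns to see how far the members stood above reads that need not come from spliced RNA. *Ins2* exons had 610, 742 and 1495 times the background density in Trpm7R/R, against 5874, 4965 and 2064 times in WT. *Ins1* exons had 334, 256 and 454 times in Trpm7R/R, against 1093, 2278 and 726 times in WT. *Iapp* exons had 97.1, 80.5 and 246 times in Trpm7R/R, against 586, 482 and 376 times in WT. The difference in mean log2 density was -2.16 for *Ins2*, -1.85 for *Ins1* and -1.93 for *Iapp*, and for each member the groups did not overlap (2-sided exact permutation test, p = 0.1 for each, the smallest possible). The share of all genes that separate by density was not computed. In TMM-scaled exon reads, 6.84% of all genes tested had every Trpm7R/R library below every WT library, as had 61 of 75 ribosomal protein genes. Reads at background density over the exons would equal at most 0.164% of *Ins2* exon reads, 0.391% of *Ins1* exon reads and 1.24% of *Iapp* exon reads, each of these in a Trpm7R/R library.

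The genotypes were not separated by intron reads of *Ins2*. Its introns had 319, 303 and 344 reads in Trpm7R/R, against 373, 364 and 313 in WT, so that WT replicate 3 lay within the Trpm7R/R range. These are 1.07 to 1.27 times the background density in Trpm7R/R and 1.14 to 1.32 times in WT, so over its 63414 intron bases *Ins2* was near the level of other long introns in both genotypes (2-sided exact permutation test of this density, p = 0.2). Most of that length lies outside the main transcript, whose introns have 102 and 488 bases. The 118-base intron of *Ins1* had 0, 0 and 4 reads in Trpm7R/R, against 0, 3 and 1 in WT, too few to compare. *Iapp* introns had 29, 29 and 51 reads in Trpm7R/R, against 63, 104 and 39 in WT, and none of these reads mapped uniquely in any library, so they cannot be assigned to *Iapp*.

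**Figure D3:**
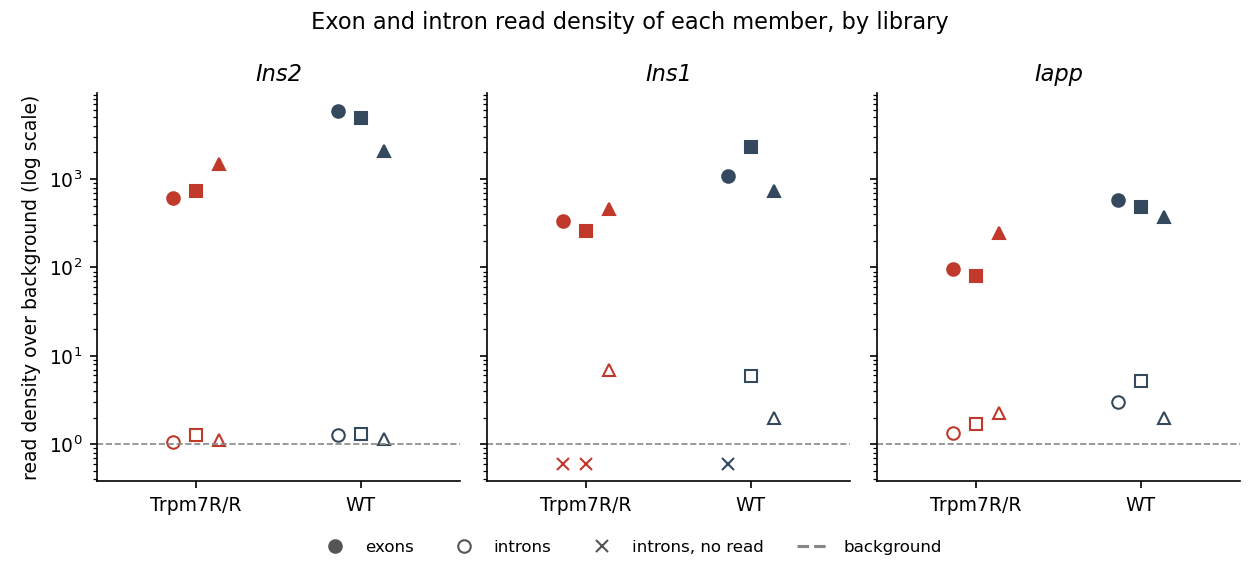
Read density over the background on a log scale in exons (filled symbols) and introns (open symbols) of *Ins2*, *Ins1* and *Iapp*, for 3 Trpm7R/R (red, left) and 3 WT libraries (dark, right); crosses stand for introns with 0 reads and are placed at an arbitrary height, and the dashed line is the background. *Ins2* exons lie 610 to 1495 times above it in Trpm7R/R and 2064 to 5874 times in WT, while its introns lie at 1.07 to 1.27 and 1.14 to 1.32 times.

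Exon-exon reads come from spliced RNA, and each member offers them at different places. The second junction of *Ins2* and the second junction of *Iapp* lie within the coding sequence and are shown with the last 15 bases of the earlier exon in lower case and the first 15 bases of the next exon in capitals. They are from GENCODE M21 transcripts. The *Ins2* junction joins chr7:142679347 to chr7:142678858 on the minus strand, 200 bases from the 3′ end of the transcript, and the *Iapp* junction joins chr6:142298931 to chr6:142303306 on the plus strand, 656 bases from the 3′ end.
Ins2 exons 2 and 3: tggaggacccacaagTGGCACAACTGGAGC
Iapp exons 2 and 3: tacacctgtcagaagTGGTAGCAACCCTCA
The single junction of *Ins1*, in its 5′ UTR, is 867 bases from the 3′ end.

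*Ins2* had 1076, 811 and 2639 exon-exon reads in Trpm7R/R, against 12556, 9307 and 3665 in WT. They made up 28.5%, 22.2% and 27.4% of its exon reads in Trpm7R/R, against 35.5%, 32.9% and 31.3% in WT, and the exact 95% binomial interval of the lowest WT library, 30.4% to 32.1%, lay above those of all Trpm7R/R libraries. Both the number and the share of spliced *Ins2* reads were thus lower in every Trpm7R/R library, with a difference in mean share of -7.19 percentage points (2-sided exact permutation test, p = 0.1, the smallest possible). The intervals cover counting error only.

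*Ins1* had 3, 2 and 28 exon-exon reads in Trpm7R/R, against 49, 111 and 54 in WT. They made up 0.180%, 0.196% and 1.18% of its exon reads in Trpm7R/R, against 0.921%, 1.06% and 1.62% in WT, so that the shares overlapped. *Iapp* had 38, 12 and 126 exon-exon reads in Trpm7R/R, against 115, 143 and 187 in WT. They made up 8.52%, 4.08% and 10.7% of its exon reads in Trpm7R/R, against 4.40%, 7.02% and 11.8% in WT. Thus the share of exon reads that span a junction was lowest for *Ins1*, whose junction is farthest from the 3′ end, and highest for *Ins2*, whose last junction is nearest, in all 6 libraries; whether the distance sets the share was not tested.

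Of all exon-exon reads of nuclear genes, *Ins2* held 1.03%, 0.825% and 2.04% in Trpm7R/R, against 11.8%, 6.96% and 2.61% in WT. *Ins1* held 0.00203% to 0.0216% in Trpm7R/R and 0.0385% to 0.0830% in WT, and *Iapp* held 0.0122% to 0.0974% in Trpm7R/R and 0.107% to 0.133% in WT. The groups did not overlap for any of the 3 (2-sided exact permutation test, p = 0.1 for each, the smallest possible). How many of all genes separate by this measure was not computed, against 6.84% of the genes tested in TMM-scaled exon reads. Left without the 11 dense predicted genes, a total chosen after seeing the data, the share of *Ins2* was 12.2%, 13.2% and 25.4% in Trpm7R/R, against 42.3%, 26.3% and 21.6% in WT, and the groups overlapped (2-sided exact permutation test, p = 0.2). The same total gave *Ins1* a share of 0.0339%, 0.0326% and 0.270% in Trpm7R/R, against 0.165%, 0.314% and 0.319% in WT, again with an overlap. It gave *Iapp* 0.429%, 0.196% and 1.21% in Trpm7R/R, against 0.387%, 0.404% and 1.10% in WT, with means of 0.613% and 0.632% that did not separate (2-sided exact permutation test, p = 1). Among spliced reads counted in this way, the lower level of *Iapp* in Trpm7R/R was therefore not seen. In a fit to exon-exon reads alone, over the 181 genes with enough of them, the log2 fold change was -1.07 for *Ins2* (adjusted p = 0.294 from edgeR), -1.20 for *Ins1* (adjusted p = 0.294 from edgeR) and -0.055 for *Iapp* (adjusted p = 0.984 from edgeR).

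The members were next set against 4 groups of transcripts that are not particular to islets, as 12 ratios with p-values adjusted over these 12. The 79 cytosolic ribosomal protein genes, present in all cells, had 1986 to 2834 exon reads in Trpm7R/R and 4809 to 10304 in WT, so the comparison group itself differed in the same direction. *Ins2* had 1.33, 1.84 and 3.56 exon reads per ribosomal protein read in Trpm7R/R, against 5.86, 2.75 and 2.44 in WT. *Ins1* had 0.589, 0.513 and 0.875 in Trpm7R/R, against 0.883, 1.02 and 0.693 in WT. *Iapp* had 0.157, 0.148 and 0.435 in Trpm7R/R, against 0.434, 0.198 and 0.329 in WT. All 3 ratios overlapped between the genotypes, and Trpm7R/R replicate 3 was within the WT range for *Ins2* and *Ins1* and at its upper end for *Iapp*. The differences in mean log2 ratio were -0.72 for *Ins2*, -0.41 for *Ins1* and -0.49 for *Iapp* (2-sided exact permutation tests, adjusted p = 0.4, 0.3 and 0.5). With Trpm7R/R replicate 1 alone they were -1.35, -0.54 and -0.95, and leaving out 1 library at a time gave -1.12 to -0.33 for *Ins2*, -0.64 to -0.25 for *Ins1* and -0.997 to -0.22 for *Iapp*.

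A second list of 23 housekeeping transcripts gave a like picture. *Ins2* had 5.26, 7.43 and 15.9 exon reads per housekeeping read in Trpm7R/R, against 16.8, 16.0 and 10.7 in WT. *Ins1* had 2.33, 2.08 and 3.92 in Trpm7R/R, against 2.52, 5.96 and 3.05 in WT. *Iapp* had 0.621, 0.599 and 1.95 in Trpm7R/R, against 1.24, 1.15 and 1.45 in WT. The groups overlapped for all 3 members, since Trpm7R/R replicate 3 was within the WT range for *Ins2* and *Ins1* and above it for *Iapp*, and the differences in mean log2 ratio were -0.74, -0.43 and -0.51 (2-sided exact permutation tests, adjusted p = 0.3, 0.5 and 0.48). With Trpm7R/R replicate 1 alone they were -1.44, -0.62 and -1.04, and leaving out 1 library at a time gave -1.19 to -0.39 for *Ins2*, -0.70 to -0.057 for *Ins1* and -1.06 to -0.21 for *Iapp*.

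The other 2 comparison groups did not differ in this way, and the members stayed further apart against them. Protein genes of the mitochondrial chromosome had 79897 to 93547 exon reads in Trpm7R/R and 74231 to 141169 in WT, and relative to them the mean log2 ratio differed by -1.83 for *Ins2*, -1.52 for *Ins1* and -1.60 for *Iapp* (2-sided exact permutation tests, adjusted p = 0.3 for each). The groups did not overlap for *Ins1* in that ratio and did for *Ins2* and *Iapp*. The 28 acinar markers, genes of the digestive enzymes of exocrine pancreas, had 210 to 283 exon reads in Trpm7R/R and 235 to 362 in WT, a summed density of 1.05 to 1.32 times the background in Trpm7R/R and 1.19 to 1.74 times in WT. *Amy2a5*, a pancreatic amylase gene, held 108 to 135 of these reads in Trpm7R/R and 120 to 157 in WT and was the only one of the 28 at over 5 times the background, while other enzyme genes such as *Cpa1* (1 to 7 reads) and *Ctrc* (0 or 1 read) were at or near 0. This group is thus not abundant, and ratios to it are close to ratios to the background. Relative to it, the mean log2 ratio differed by -1.98 for *Ins2*, -1.67 for *Ins1* and -1.75 for *Iapp*, and the groups did not overlap for any of the 3 (2-sided exact permutation tests, adjusted p = 0.3 for each). How many of all genes separate by such a ratio was not computed.

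**Figure D4:**
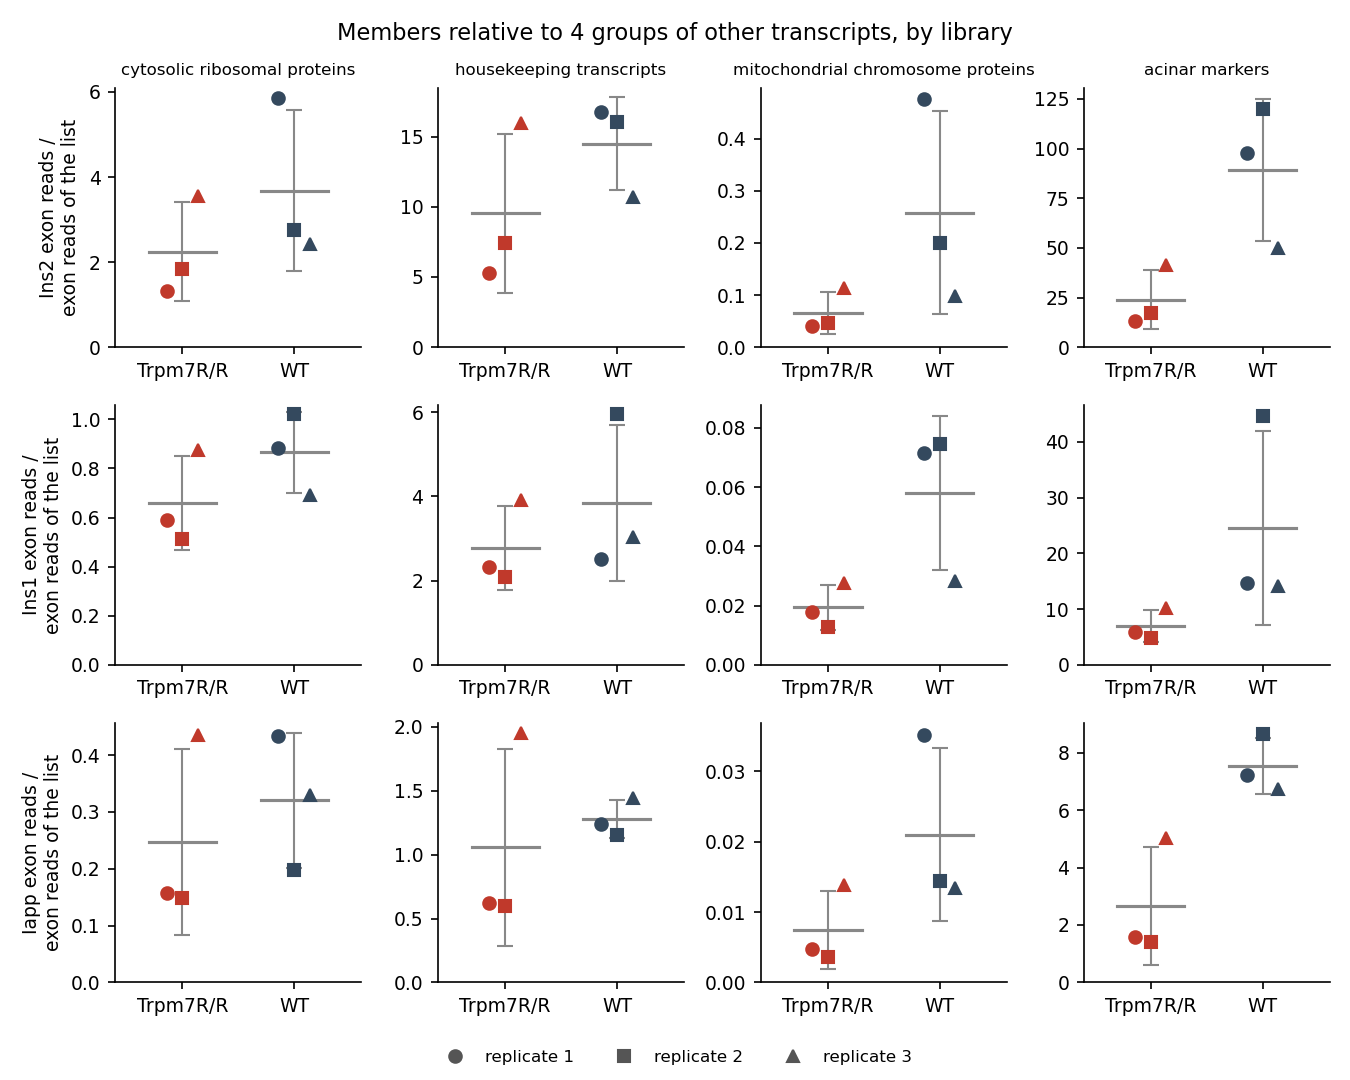
Exon reads of *Ins2*, *Ins1* and *Iapp* (panels from top to bottom) divided by the summed exon reads of cytosolic ribosomal protein genes, housekeeping transcripts, protein genes of the mitochondrial chromosome and acinar markers (panels from left to right), within each of 3 Trpm7R/R (red, left) and 3 WT libraries (dark, right), on linear axes from 0 with means and SD. The groups overlap for the first 2 lists, for *Ins2* at 1.33 to 3.56 in Trpm7R/R and 2.44 to 5.86 in WT, and do not overlap for the last list.

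The choice of scale had the same effect on the fit across all genes. Under size factors of DESeq2, upper quartile scaling, library totals and scaling by all mapped reads, the log2 fold change stayed between -2.25 and -2.10 for *Ins2*, between -2.0 and -1.88 for *Ins1* and between -1.75 and -1.69 for *Iapp*. Scaled by ribosomal protein genes it was -0.72 for *Ins2*, -0.39 for *Ins1* and -0.38 for *Iapp*. Scaled by housekeeping transcripts it was -0.60, -0.47 and -0.28 for the same genes, and scaled by exon-exon reads of other nuclear genes -0.74, -0.44 and -0.40. These last 3 scalings moved the median of all genes tested to 1.34, 1.35 and 1.32, so relative to that median the members were lower by about as much as under TMM. The direction of the 3 members was the same under all of these scalings, and their distance from 0 was under 1 standard error for *Ins1* and *Iapp* when scaled by ribosomal protein genes, housekeeping transcripts or other exon-exon reads, and for *Ins2* when scaled by housekeeping transcripts.

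**Figure D5:**
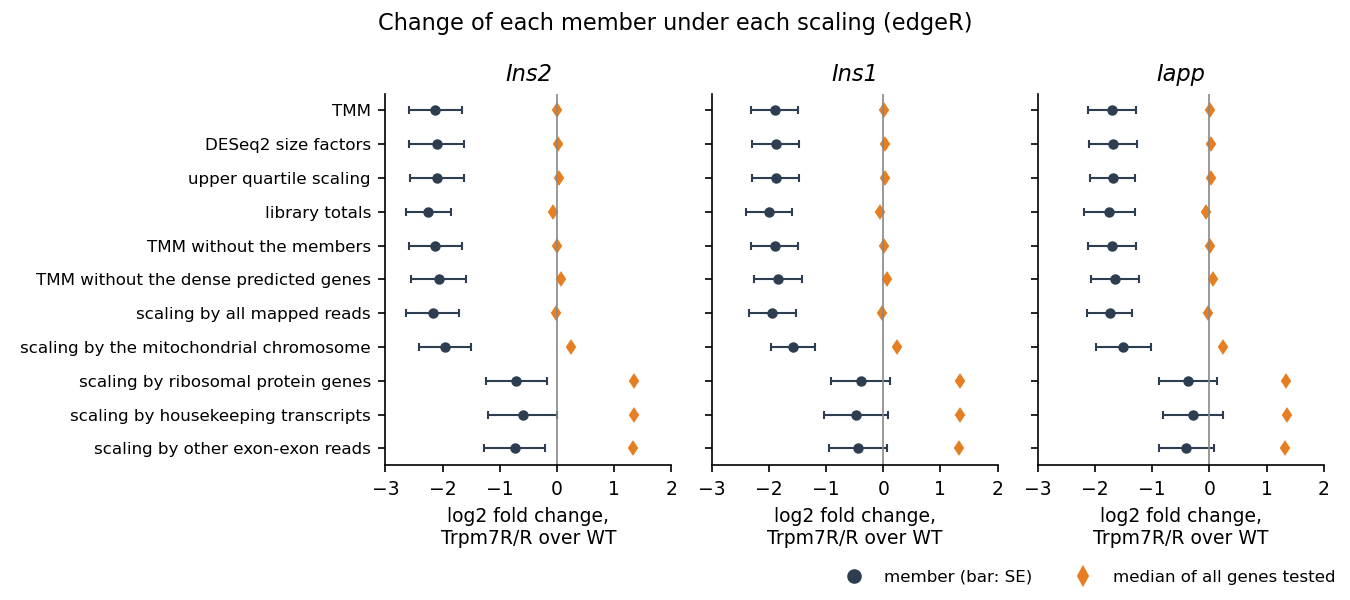
Log2 fold change, Trpm7R/R over WT, of *Ins2*, *Ins1* and *Iapp* from edgeR (dark points, bars are 1 standard error) under 11 ways of scaling the libraries, with the median of all genes tested (orange). Under TMM the members lie at -2.13, -1.89 and -1.70 with the median at 0.01, and under scaling by ribosomal protein genes at -0.72, -0.39 and -0.38 with the median at 1.34.

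Genes that act on the promoters of the members were read from the same fit. Of 19 listed factors 13 could be tested. EdgeR's quasi-likelihood test called 0 lower, against 0.0257% of all genes tested, and DESeq2 called 1, against 1.08%. An unadjusted p under 0.05 in edgeR and a lower level were found for 5, against 4.57% of all genes tested. The median log2 fold change was -0.41, against 0.01 for all genes tested. The summed exon density of the 19 factors was 0.932 to 0.973 times the background in Trpm7R/R and 1.39 to 1.88 times in WT. Only 1 of them, *Mafa*, was at 5 times the background or more on average, so most of this list was near the background. *Mafa*, the β cell factor that binds the insulin promoter in mature cells, had 28, 24 and 27 exon reads in Trpm7R/R, against 199, 160 and 59 in WT (log2 fold change -2.35 ± 0.41, standard error; edgeR adjusted p = 0.0516). *Nkx6-1*, another β cell factor, had 9, 5 and 5 exon reads in Trpm7R/R, against 18, 27 and 15 in WT, and *Pax6*, an endocrine factor, had 25, 15 and 41, against 38, 84 and 74. All Trpm7R/R libraries were below all WT libraries for *Mafa* and *Nkx6-1* and not for *Pax6*. The exon density of *Nkx6-1* averaged only 0.949 times the background. The median of this list was 0.93 when scaled by ribosomal protein genes, where only 2 of 13 factors were below 0.

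The hormones pass through the ER and are processed in granules by a shared machinery. Of 30 listed genes for ER entry and folding 22 could be tested. The summed exon density of this list was 1.13 to 1.38 times the background in Trpm7R/R and 2.29 to 3.22 times in WT. EdgeR's quasi-likelihood test called 1 lower, against 0.0257% of all genes tested, and DESeq2 called 7, against 1.08%, and 14 had an unadjusted p under 0.05 in edgeR and a lower level, against 4.57%, with a median of -1.24. The one called by edgeR was *Hsp90b1*, an ER chaperone, with 32, 24 and 35 exon reads in Trpm7R/R, against 134, 172 and 101 in WT (log2 fold change -2.12 ± 0.31, standard error; edgeR adjusted p = 0.0412). *P4hb*, a protein disulfide isomerase, was at -2.24 and *Calr*, the ER chaperone calreticulin, at -2.04 (adjusted p = 0.0516 for both from edgeR). Of 19 listed genes for processing and granule cargo 15 could be tested. EdgeR's quasi-likelihood test called 0 and DESeq2 called 6 lower, and 8 had an unadjusted p under 0.05 in edgeR and a lower level, with a median of -1.03. *Chga*, which encodes the granule protein chromogranin A, was at -2.06, *Cpe*, the carboxypeptidase that trims proinsulin intermediates, at -1.61, and *Chgb*, which encodes chromogranin B, at -1.51 (adjusted p = 0.0585, 0.0958 and 0.0985 from edgeR). Scaled by ribosomal protein genes the medians of these 2 lists were 0.12 and 0.31. Transcripts not particular to islets were lower too. Of 22 housekeeping transcripts tested, 17 had an unadjusted p under 0.05 in edgeR and a lower level. DESeq2 called 7 of them lower, and their median was -1.33. For the 75 cytosolic ribosomal protein genes tested these counts were 66 and 28, with a median of -1.43.

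Genes for glucose sensing and release and for receptors and degradation of both hormones had medians nearer to that of all genes tested. For the former the median was close to the -0.41 of the promoter factors. The summed exon density of glucose sensing and release was 0.662 to 0.814 times the background in Trpm7R/R and 0.906 to 1.24 in WT. That of receptors and degradation was 0.796 to 1.04 in Trpm7R/R and 0.884 to 0.971 in WT. Reads this near the background limit what both medians can show. Of 14 genes for glucose sensing and release 11 could be tested and 0 were called by edgeR or DESeq2. Of these 11, 3 had an unadjusted p under 0.05 in edgeR and a lower level, against 4.57% of all genes tested. In 5 of the 11 every Trpm7R/R library was below every WT library, against 6.84% of all genes tested. Their median was -0.34 and became 1.04 when scaled by ribosomal protein genes. The smallest p were those of *Glp1r*, the receptor of the incretin GLP-1 (log2 fold change -1.29), *Ffar1*, a fatty acid receptor (-1.50), and *Abcc8*, the sulfonylurea receptor subunit of the ATP-sensitive potassium channel (-1.27), with adjusted p of 0.218, 0.250 and 0.422 from edgeR. Of 10 genes for receptors and degradation 6 could be tested; 0 were called by edgeR or DESeq2, 0 had an unadjusted p under 0.05, and the median was 0.04. *Irs1*, an adaptor of the insulin receptor, was at 0.58, *Calcr*, the core of the amylin receptors, at 0.39, and *Ide*, the insulin-degrading enzyme, at -0.50, each with an adjusted p of 1.00 from edgeR.

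Of the hormones of other islet cells, *Pyy* and *Ppy* were called lower and *Gcg* and *Sst* were not in edgeR's quasi-likelihood test, while DESeq2 called all 4. Over all genes tested, edgeR called 0.0257% lower and DESeq2 1.08%. For these 4 genes the median log2 fold change was -2.17, which was -0.76 when scaled by ribosomal protein genes. *Pyy*, which encodes peptide YY, had 215, 130 and 118 exon reads in Trpm7R/R, against 1233, 1110 and 588 in WT (log2 fold change -2.61 ± 0.35, standard error; edgeR adjusted p = 0.0255). *Ppy*, the pancreatic polypeptide gene, had 659, 462 and 382 in Trpm7R/R, against 2741, 3304 and 2017 in WT (log2 fold change -2.37 ± 0.32, standard error; edgeR adjusted p = 0.0255). *Gcg*, which encodes the glucagon of α cells, had 920, 490 and 1270 in Trpm7R/R, against 3723, 4992 and 1956 in WT (log2 fold change -1.97 ± 0.38, standard error; edgeR adjusted p = 0.0585). *Sst*, the somatostatin gene of δ cells, had 21, 25 and 86 in Trpm7R/R, against 188, 156 and 84 in WT, and the raw reads of Trpm7R/R replicate 3 and WT replicate 3 overlapped, which TMM-scaled counts did not (log2 fold change -1.68, edgeR adjusted p = 0.216). The edgeR calls of *Pyy*, *Ppy* and *Hsp90b1* were lost, with 0 genes called lower, without any one of Trpm7R/R replicates 2 and 3 and WT replicates 1 and 2. The 12 β cell markers other than the members had a summed exon density of 0.853 to 1.14 times the background in Trpm7R/R and 1.74 to 2.90 times in WT, and the 10 α cell markers, *Gcg* among them, 5.19 to 9.95 times in Trpm7R/R and 17.5 to 43.9 times in WT. Both sets of markers therefore moved with the members, and their part in the members' difference was not tested.

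The genes whose pattern was most like each member were ranked by Pearson's r of log2 CPM, TMM-scaled counts relative to library size, over the 6 libraries, among 2178 genes with a mean of at least 50 exon reads. These values are a description, since the libraries share the genotype difference and the spliced share given above. For *Ins2* the 5 closest were *Rps14*, *Chga*, *Rock1*, *Cst3* and *Rpl10-ps3*, with r between 0.983 and 0.991. For *Ins1* they were *Ubxn4*, *Ttr*, *Rpl26*, *Rps24* and *Gcg*, with r between 0.986 and 0.996. For *Iapp* they were *Rasa2*, *Rps3a1*, *Scg3*, *Rps27a* and *Sst*, with r between 0.966 and 0.986. Between the members r was 0.919 for *Ins1* with *Ins2*, 0.955 for *Iapp* with *Ins2* and 0.881 for *Iapp* with *Ins1*, so none of the members was among the 5 closest genes of another. Ribosomal protein genes or a pseudogene of one were among the 5 closest genes of each member.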

How the data were processed

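RNA from islets of 3 Trpm7R/R and 3 WT mice was analysed from 1 table per library. The authors deposited raw read counts for each gene: over the whole gene, in its exons, in its introns and over exon-exon junctions, in a version with all reads and one with unique reads. Their deposited RPKM divides exon reads by exon length and mapped reads, and their deposited TPM divides the same densities by a common sum. The library kit was one for low RNA input, and the counts are of reads, not of molecules. The aligner and counter are not given in the sources used. The submitters' processing notes name mm10 as the build. The files place genes elsewhere than GRCm38 does, so positions printed are those of GENCODE M21. A table of the authors' own comparison holds fold changes and p-values and was not used. Mapped reads were derived from RPKM, exon length and exon reads.

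Total exon reads were fitted with edgeR 4.0.16 in R 4.3.3 (quasi-likelihood test, genotype as the only term, TMM, filterByExpr with a minimum of 10 counts, 11674 genes kept, Benjamini-Hochberg adjustment over these), and all 3 members passed the filter. Calls needed a 2-fold change and an adjusted p no larger than 0.05. Effective library sizes were 1369590 to 1646670 reads, and the biological coefficient of variation was 0.321. Single values were compared by 2-sided exact permutation tests over 20 arrangements, and shares have exact (Clopper-Pearson) 95% intervals. Normalized counts are TMM-scaled counts at the mean effective library size. The script was tested on simulated data. DESeq2 1.42.0 and limma 3.58.1 (voom), other scalings, filters, read classes and left-out libraries were tried as alternatives. Python 3.11.15, pandas 2.3.3, numpy 2.4.6, scipy 1.17.1 and matplotlib 3.10.9 were used. The genes named are the 3 members, the 3 smallest p in each of 6 pathway lists, and the 5 most alike in pattern to each member; acinar genes are named as examples chosen after their values were seen. Of 337 listed symbols 334 were found. The members and lists were chosen with earlier results of these data known.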

Additional observations from a re-analysis of the deposited data

How the results depend on the processing

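The log2 fold changes of the 3 members were negative in all 24 alternative fits, which gave 72 values. They passed the threshold, besides the DESeq2 Wald test (-2.11 for *Ins2*, -1.88 for *Ins1* and -1.69 for *Iapp*), with edgeR's likelihood ratio test (-2.13, -1.89 and -1.70), with all genes of at least 1 count (-2.03, -1.82 and -1.60), and for *Ins2* and *Ins1* with library totals (-2.25 and -2.0). Leaving out 1 library each gave -2.58 to -1.73 for *Ins2*, -2.18 to -1.31 for *Ins1* and -2.35 to -1.39 for *Iapp*; *Ins2* and *Ins1* passed without WT replicate 3, and *Ins1* without Trpm7R/R replicate 1. Adjusted p over all alternatives were 0.000402 to 0.663 for *Ins2*, 0.00088 to 0.864 for *Ins1* and 0.00843 to 0.984 for *Iapp*.

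The number of genes called lower was 3 as reported, 30 with upper quartile scaling, 23 with library totals, 6 scaled by ribosomal protein genes, 0 by the mitochondrial chromosome, 131 with all genes of 1 count, 104 with DESeq2, 161 with the likelihood ratio test, 0 with total gene reads and 0 with exon-exon reads. Under alternatives chosen after seeing the data it was 0 with TMM without the dense predicted genes, 46 by all mapped reads, 8 by housekeeping transcripts, 10 by other exon-exon reads and 8 with Trpm7R/R replicate 1 alone. Without 1 library each it was 0 to 151, with 151 without Trpm7R/R replicate 1, 32 without WT replicate 3 and 0 without any of the other libraries. Genes called higher numbered 0 (133 at an unadjusted p under 0.05, and 0 with DESeq2), but 7202 by ribosomal protein genes, 7901 by housekeeping transcripts, 7623 by other exon-exon reads, 10 with all genes of 1 count, 1 with the likelihood ratio test and 0 to 45 without 1 library each (45 without Trpm7R/R replicate 1). The cause was not tested, apart from the shift of the median that these scalings set by construction.

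The difference in log2 ratio of *Ins1* to *Ins2* was -1.08 with exon-exon reads and -0.059 to 0.59 without 1 library each (-0.059 without WT replicate 1); that of *Iapp* to insulin was -0.046 to 0.46 without 1 library each (-0.046 without WT replicate 2). The 105 alternatives of the ratios to other transcripts were below 0 except *Iapp* to acinar markers with exon-exon reads (0.48), where Trpm7R/R replicate 3 had 126 *Iapp* reads for 1 acinar read. With Trpm7R/R replicate 1 alone, the *Ins1* to *Ins2* difference was 0.81 and that of *Iapp* to insulin 0.21. No paired analysis was possible because the labels give the mice no replicate numbers, and the numbers used here only name the libraries in the order of their records. At this depth, exon-exon reads of *Ins1* (2 to 28 in Trpm7R/R, 49 to 111 in WT) and *Iapp* limit what spliced reads can show.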

Other observations

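Among the β cell markers other than the hormones, 6 of the 10 that could be tested had an unadjusted p under 0.05 in edgeR and a lower level in Trpm7R/R, against 4.57% of all genes tested. The same was true of 17 of 22 housekeeping transcripts and 66 of 75 cytosolic ribosomal protein genes, which are not particular to islets. *Ucn3*, which encodes the peptide urocortin 3 of mature β cells, had 7, 11 and 10 exon reads in Trpm7R/R, against 58, 55 and 22 in WT. *Slc30a8*, the zinc transporter of insulin granules, had 11, 12 and 54 in Trpm7R/R, against 56, 55 and 47 in WT, and *G6pc2*, the islet glucose-6-phosphatase subunit, had 24, 15 and 59, against 51, 60 and 46. For these 2 genes, as for the insulin genes, Trpm7R/R replicate 3 was highest of its group, and here it was within the WT range. *Slc2a2*, the glucose transporter GLUT2, had 24, 20 and 19 in Trpm7R/R, against 26, 25 and 27 in WT, at a mean of 0.926 times the background. These 4 genes were chosen after their values were seen.

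Summed over each list, markers of 4 cell types outside the endocrine islet were near the background in both genotypes. The summed exon density of 12 endothelial markers was 0.678 to 1.20 times the background in Trpm7R/R and 0.630 to 1.07 in WT. That of 16 macrophage and leukocyte markers was 0.523 to 1.33 in Trpm7R/R and 0.799 to 1.27 in WT, and that of 13 stellate and fibroblast markers 0.816 to 0.983 in Trpm7R/R and 0.921 to 1.21 in WT. The 12 duct markers had 0.609 to 0.791 times the background in Trpm7R/R and 0.724 to 1.46 in WT. In all 4 of these lists the genotypes overlapped.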
